A study of Homo sapiens with 4 samples.

Results

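Keratins and the other intermediate filament genes were examined in 92.1, a long-established cell line from uveal melanoma, the pigment cell tumour of the eye, in 2 libraries of parental cells and 2 of resistant cells. The 10 genes were chosen by name, and all 10 were found among the 11650 genes of the deposited tables. They are the keratins KRT8, KRT18, KRT19 and KRT10, the type III and IV filament genes VIM, NES and SYNM, and the lamin genes LMNA, LMNB1 and LMNB2. All libraries carry titles of 92.1, while the cell line label counts up from sample to sample, and the titles were followed here. The labels describe the parental group only as parental and the other only as resistant cells. They name neither the agent nor the dose behind the resistance, and nothing says that the paired libraries are separate cultures, so p-values measure only the spread between them, which may be technical. The resistant group stands for 1 line only, and the labels do not say whether its libraries come from 1 derivative or more.

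Intermediate filaments are rope-like polymers that give cells and nuclei mechanical strength. Keratins assemble only as pairs of a type I and a type II chain and mark epithelial cells. VIM, the vimentin gene, supplies the main cytoplasmic filament of mesenchymal cells and of melanoma, nestin (NES) is a large filament protein of neural and neural crest progenitors, and synemin (SYNM) joins vimentin-type filaments. Lamins line the inner face of the nuclear envelope, where LMNA encodes lamins A and C, and LMNB1 and LMNB2 encode the B-type lamins.

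Values are FPKM, fragments per kilobase of transcript scaled to the mapped fragments of the library, so levels of different genes may be compared within a library. The summed FPKM ran from 282602 to 293481 over the 4 libraries, and their depth could not be recovered. Across genes, log2 values of replicates correlated at 0.971 for the parental pair and 0.945 for the resistant pair. The pooled SD between replicates was 0.266 and 0.378 on the log2 scale. All 11 melanocyte markers on the list had a value, among them TYRP1, a melanin enzyme, at 1484 FPKM or more and the melanosome protein MLANA at 207 FPKM or more in every library.

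The regions before the starts of KRT10 and NES are shown as examples of genes with higher values in resistant cells, and that of VIM as an example with lower values. Each run is the 250 bases before the RefSeq start, 5′ to 3′ on the gene's strand, on GRCh38.p14, for KRT10 at chr17:40822615-40822864 (minus strand), NES at chr1:156677408-156677657 (minus strand) and VIM at chr10:17227991-17228240 (plus strand). Capitals mark every match, on either strand, to TATAAA (the TATA box), to CCAAT (a word of many promoters) or to GGGCGG (the site of factors of the Sp family).
KRT10: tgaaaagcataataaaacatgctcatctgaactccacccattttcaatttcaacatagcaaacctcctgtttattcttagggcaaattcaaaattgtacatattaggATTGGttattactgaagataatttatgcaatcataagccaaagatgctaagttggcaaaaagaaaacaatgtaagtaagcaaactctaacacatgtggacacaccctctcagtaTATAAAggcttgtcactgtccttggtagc
NES: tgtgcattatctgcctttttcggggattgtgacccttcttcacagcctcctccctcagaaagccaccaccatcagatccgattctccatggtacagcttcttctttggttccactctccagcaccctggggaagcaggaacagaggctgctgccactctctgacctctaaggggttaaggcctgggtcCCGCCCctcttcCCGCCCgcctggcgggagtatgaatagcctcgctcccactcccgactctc
VIM: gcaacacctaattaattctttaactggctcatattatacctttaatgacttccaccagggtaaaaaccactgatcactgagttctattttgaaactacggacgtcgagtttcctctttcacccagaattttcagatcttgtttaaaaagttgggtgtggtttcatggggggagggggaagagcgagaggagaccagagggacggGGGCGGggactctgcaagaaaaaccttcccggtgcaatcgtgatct
KRT10 held TATAAA beginning 29 bases before the start and 1 match to CCAAT, and its GC content was 34.8%. NES held 2 matches to GGGCGG and VIM held 1, with GC contents of 58.0% and 46.0%, against a median of 58.0% over all windows. Of 35116 RefSeq windows of the same length, 10.7% held TATAAA, 32.0% CCAAT and 42.6% GGGCGG. Also searched were TGANTCA (the AP-1 site), CACGTG (an E-box) and GGAATG (the TEAD site), held by 6.57%, 6.34% and 11.9% of all windows, and none of these 3 was found in the runs shown. The words do not overlap one another in these runs, and a match describes the letters only. RefSeq windows were matched for 8 of the 10 genes, and KRT18 and KRT19 were not among them. The KRT8 window held none of the 6 words, and its start lay within 50 bases of only 1 of 17 KRT8 transcript starts in GENCODE release 29. The same held for 1 of 10 transcript starts of VIM, 1 of 2 of KRT10 and the single start of NES, so the VIM run stands for 1 of several annotated starts.

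In resistant cells the simple keratins, KRT10, NES and SYNM stood higher than in parental cells, VIM and LMNB1 stood lower, and LMNA and LMNB2 overlapped between the groups. None of the 10 genes passed the test across all genes. That test (limma on log2(FPKM + 1), two-sided, Benjamini-Hochberg adjustment over the 10271 genes whose mean reached 1 FPKM, threshold 0.05) called 0 of the 10 genes, against 0.0584% of all tested genes (0.0487% higher and 0.00974% lower). At an unadjusted limma p under 0.05 stood 8 of the 10, 6 higher and 2 lower, against 16.2% of all tested genes (6.06% higher and 10.2% lower). The count was 5 of the 10 without parental replicate 1 (363 higher and 336 lower over all genes, in place of 622 and 1045) and 4 without parental replicate 2 (332 and 463). It was 7 without resistant replicate 1 (1107 and 2528), 8 without resistant replicate 2 (1031 and 1164) and 6 with median-of-ratios scaling, which put 916 of all genes higher and 886 lower. Parental and resistant values were separate for 8 of the 10, 6 higher and 2 lower in resistant libraries, against 51.0% of all tested genes (19.1% higher and 31.8% lower). The genes were listed with earlier results of these data known, and KRT8 and KRT19, which were under 1 FPKM in parental cells, passed the minimum only by their level in resistant cells. Of the other 8 genes, the groups of KRT18, KRT10, VIM, NES, SYNM and LMNB1 did not overlap. The median log2 fold change over all tested genes was -0.079.

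**Figure D1:**
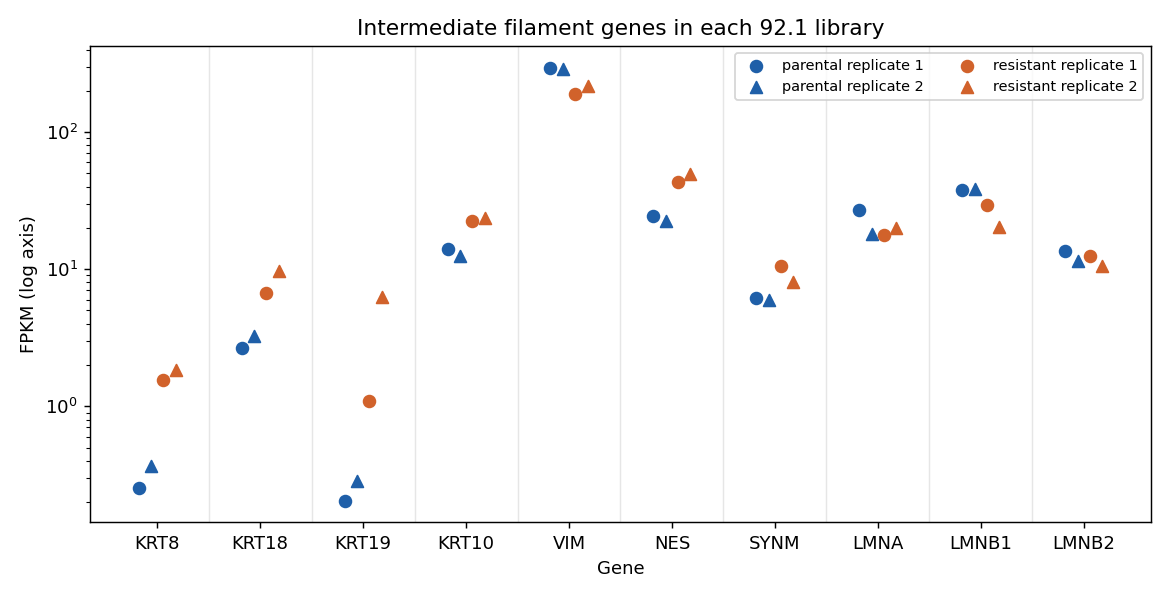
FPKM of each intermediate filament gene (log axis) in the 2 parental (blue) and 2 resistant (orange) libraries, with 1 point per library. VIM stands highest in every library, and KRT8 and KRT19 lie under 1 FPKM in both parental libraries and above it in both resistant ones.

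KRT8 and KRT18 encode the keratin pair of simple epithelia, the first type II and the second type I. KRT8 stood at 0.252 and 0.364 FPKM in parental cells against 1.56 and 1.84 FPKM in resistant cells. The mean FPKM was 5.51-fold higher in resistant cells, and the groups did not overlap. Its log2 fold change was 1.04 ± 0.16 SE (limma adjusted p = 0.103), and 2.15 with a pseudocount of 0.1 or 1.71 after rescaling to a common sum, since the added 1 FPKM shrinks the change of so low a gene. KRT18 stood at 2.67 and 3.26 FPKM in parental cells against 6.73 and 9.62 FPKM in resistant cells, a 2.76-fold higher mean. Both resistant libraries lay above both parental ones, with a log2 fold change of 1.20 ± 0.23 SE (95% interval 0.61 to 1.79, limma adjusted p = 0.141).

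KRT19, a small type I keratin of simple epithelia, showed the widest spread. Parental cells held 0.205 and 0.287 FPKM, resistant replicate 1 held 1.1 FPKM and resistant replicate 2 held 6.29 FPKM. The groups did not overlap, but the 2 resistant libraries differed from each other more than either parental library differed from resistant replicate 1. The log2 fold change was 1.65 ± 0.57 SE (95% interval 0.20 to 3.10, limma adjusted p = 0.277), and it was 0.75 without resistant replicate 2 and 2.55 without resistant replicate 1. With a pseudocount of 0.1 it was 3.01.

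KRT10, a type I keratin best known from the upper layers of epidermis, was the most abundant keratin in every library. It stood at 14.01 and 12.5 FPKM in parental cells against 22.4 and 23.8 FPKM in resistant cells. The groups did not overlap, the mean was 1.74-fold higher, and the log2 fold change was 0.76 ± 0.17 SE (95% interval 0.34 to 1.18, limma adjusted p = 0.165). The order of levels in parental cells was KRT10, then KRT18, then KRT8 and KRT19, whose ranges overlapped. KRT19 of resistant replicate 2 lay near KRT18 of resistant replicate 1.

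These keratin levels carry limits of annotation. GENCODE release 29 names 50 pseudogenes after KRT8, 67 after KRT18 and 5 after KRT19, so reads may be divided between copies. KRT8 (chromosome 12, 52897187 to 52949954, minus strand) and KRT18 (chromosome 12, 52948871 to 52952901, plus strand) are neighbours that share 1084 annotated bases on opposite strands. KRT10 (chromosome 17, 40818117 to 40822595, minus strand) shares 3490 bases with KRT10-AS1 on the opposite strand, which stood at 1.55 and 0.571 FPKM in parental cells against 2.48 and 1.95 FPKM in resistant cells. No source used here says whether strand was used in counting, so reads of such overlapping genes cannot be told apart. KRT19 lies on chromosome 17 from 41523617 to 41528308 on the minus strand. These positions are on GRCh38, and all 10 genes are protein-coding there.

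Among 26 other type I and 25 other type II keratin genes on the lists, only KRT23 and KRT7 had a value. KRT7, the type II keratin of many glandular epithelia, stood at 0.11 and 0.138 FPKM in parental cells against 0.568 and 1.87 FPKM in resistant cells, and its mean lay below the minimum for testing. Resistant replicate 2 was thus the higher of the pair for KRT7 as for KRT19, KRT18 and KRT8. KRT23, a type I keratin, was lower in resistant cells, at 1.75 and 1.58 FPKM in parental cells against 0.675 and 0.496 FPKM in resistant cells (log2 fold change -0.75 ± 0.16 SE, limma adjusted p = 0.158). It passed the minimum only through the parental libraries.

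The balance of keratin types was uneven in every library. Summed type II keratins (KRT7 and KRT8) stood at 0.363 and 0.502 FPKM in parental cells against 2.12 and 3.71 FPKM in resistant cells. Summed type I keratins (KRT10, KRT18, KRT19 and KRT23) stood at 18.6 and 17.6 FPKM and at 30.9 and 40.2 FPKM. The ratio of type II to type I was 0.0195 and 0.0285 in parental cells, and 0.0686 and 0.0923 in resistant cells, and the groups did not overlap. KRT8 per KRT18 was 0.0947 and 0.112 in parental cells, and 0.231 and 0.192 in resistant cells. KRT19 per KRT18 was 0.0769 and 0.0882 in parental libraries, 0.163 in resistant replicate 1 and 0.654 in resistant replicate 2. No gene of the tables had both group means below 0.5009 FPKM. KRT7, KRT8 and KRT19, the numerators of these ratios, had parental means of 0.124, 0.308 and 0.246 FPKM. Their presence thus rested on the resistant libraries, which favoured higher ratios in advance, so no change in balance is read from them.

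Such ratios do not depend on how a library is scaled. On the log2 scale the resistant mean exceeded the parental mean by 1.76 for type II to type I (pooled SD 0.348), by 1.03 for KRT8 to KRT18 (pooled SD 0.181) and by 1.99 for KRT19 to KRT18 (pooled SD 1.01). The last was 0.99 without resistant replicate 2 and 2.99 without resistant replicate 1. These differences rest on KRT7, KRT8 or KRT19, present only through the resistant libraries, so neither they nor their tests are read as a shift. With 2 libraries a group, the smallest p that exact permutation allows is 0.333. Of the 7 ratios tested in all, 6 gave this smallest two-sided exact p (0.389 after Benjamini-Hochberg adjustment over the 7). That p states only that the groups of a ratio did not overlap. The groups were separate for 51.0% of all tested genes, and no such share was computed for ratios. The 7 ratios also share genes, so their count is not read as agreement among them.

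**Figure D2:**
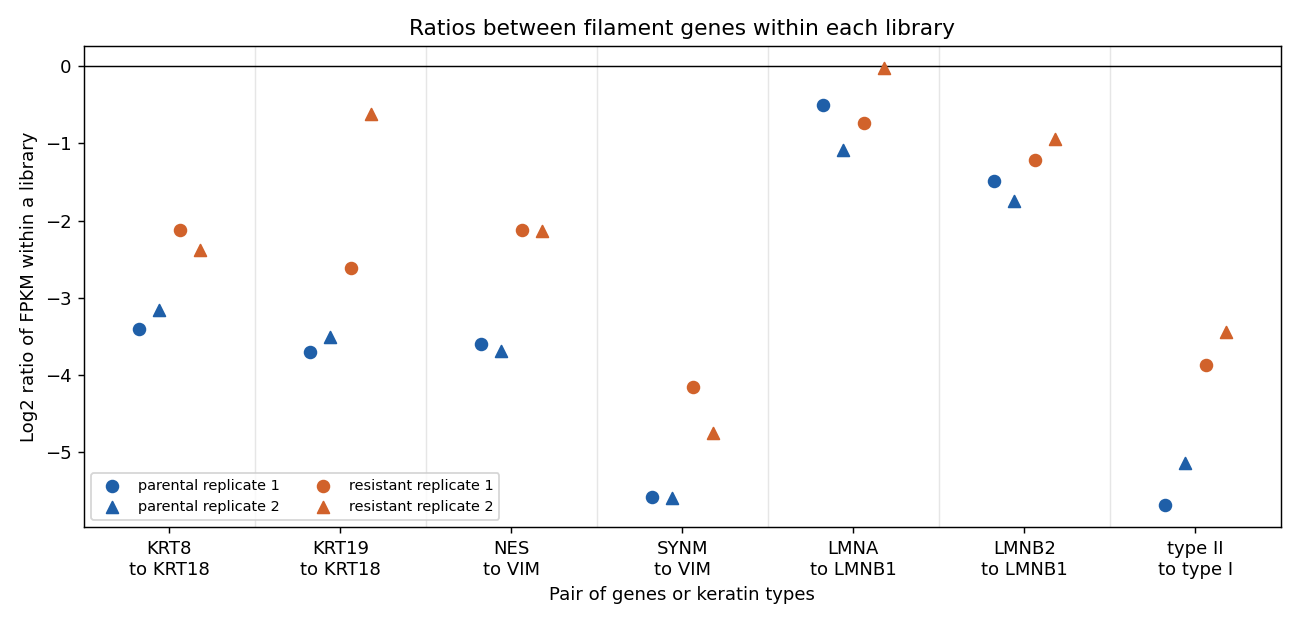
Log2 ratio of FPKM between filament genes, or between summed type II and type I keratins, in each library (blue parental, orange resistant). Every ratio except LMNA to LMNB1 places both resistant libraries above both parental ones, and NES to VIM shows the least spread between replicates. The ratios share genes, and KRT7, KRT8 and KRT19 are present only through the resistant libraries.

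VIM was the most abundant of the 10 genes, ranking 74th of all genes by its parental mean and 130th by its resistant mean. It stood at 295 and 287 FPKM in parental cells against 189 and 215 FPKM in resistant cells. Both resistant libraries lay below both parental ones, and the parental mean was 1.44-fold higher. The log2 fold change was -0.53 ± 0.13 SE (95% interval -0.87 to -0.19, limma adjusted p = 0.195). VIM lies on chromosome 10 from 17228259 to 17237593 on the plus strand, and VIM-AS1, which shares 1727 bases with it on the opposite strand, had no value.

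NES differed from VIM in direction. It stood at 24.4 and 22.4 FPKM in parental cells against 43.4 and 49.1 FPKM in resistant cells, a 1.98-fold higher mean. The groups did not overlap, and the log2 fold change was 0.95 ± 0.16 SE (95% interval 0.54 to 1.37, limma adjusted p = 0.122). NES lies on chromosome 1 from 156668763 to 156677397 on the minus strand. SYNM (chromosome 15, 99098217 to 99135593, plus strand) stood at 6.2 and 5.94 FPKM in parental cells against 10.6 and 8.01 FPKM in resistant cells. These groups did not overlap either, with a log2 fold change of 0.53 ± 0.21 SE (95% interval 0.02 to 1.05, limma adjusted p = 0.305), which was 0.35 without resistant replicate 1.

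The mixture of cytoplasmic filament transcripts differed between these libraries, though none of the genes was called. NES per VIM was 0.0825 and 0.0779 in parental cells, and 0.229 and 0.228 in resistant cells. The log2 difference was 1.51 (two-sided exact permutation p = 0.333). Its pooled SD of 0.042, the smallest among the 7 ratios, comes from only 2 libraries a group and is itself uncertain. SYNM per VIM was 0.021 and 0.0207 in parental cells, and 0.056 and 0.0372 in resistant cells, a log2 difference of 1.13 (pooled SD 0.295). Over VIM, NES, SYNM, the neurofilament gene NEFH and the 6 keratins with values, VIM made up 82.2% and 82.7% of the summed FPKM in parental cells, and 65.8% and 65.1% in resistant cells. NES made up 6.79% and 6.44% against 15.1% and 14.9%, and the keratins 5.29% and 5.22% against 11.5% and 13.3%. The keratin sum includes KRT7, KRT8 and KRT19, present only through the resistant libraries, so no change is read from the keratin share. Vimentin transcripts thus remained the majority in all 4 libraries.

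**Figure D3:**
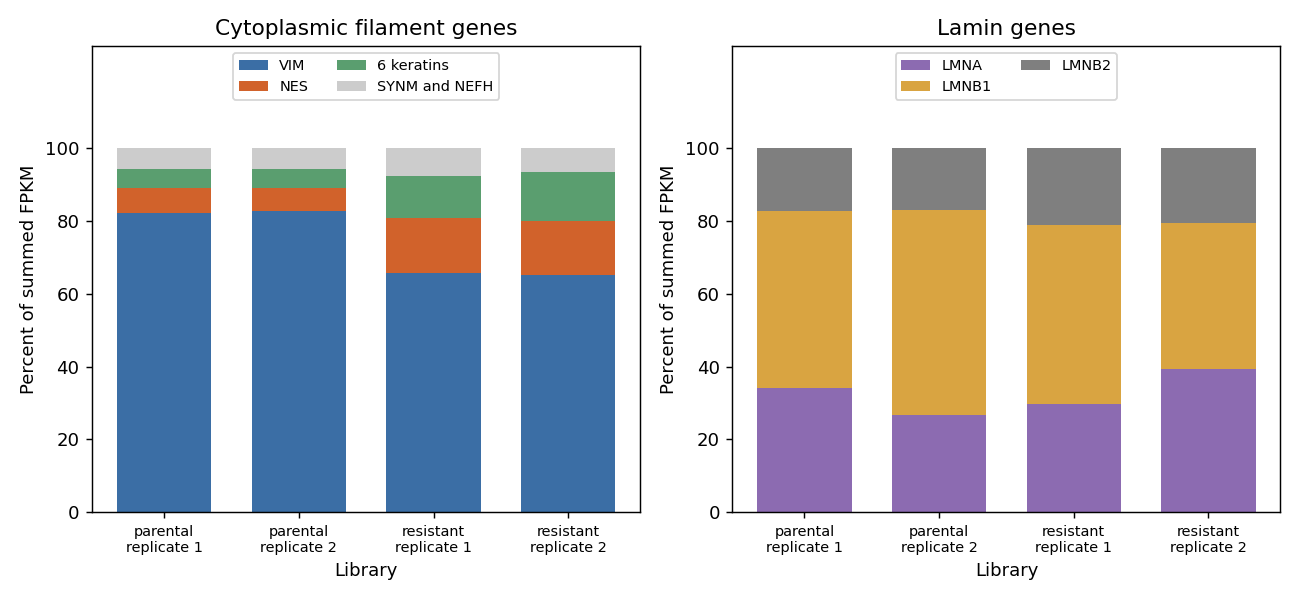
Percent of the summed FPKM of cytoplasmic filament genes (left) and of lamin genes (right) that each gene or gene group makes up, with 1 bar per library. VIM takes 82.2% and 82.7% in parental cells, and 65.8% and 65.1% in resistant cells, while the LMNA share does not separate the groups. The keratin share includes KRT7, KRT8 and KRT19, present only through the resistant libraries.

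NEFH, the neurofilament heavy chain, was the only neurofilament gene with a value and overlapped between the groups, at 14.2 and 13.7 FPKM in parental cells against 11.2 and 14.3 FPKM in resistant cells. IFFO1, an intermediate filament family orphan, stood at 2.74 and 2.22 FPKM against 2.04 and 1.91 FPKM (log2 fold change -0.22 ± 0.18 SE, limma adjusted p = 0.568). IFFO2 stood at 1.23, 1.01 and 1.6 FPKM and was listed at 0 in resistant replicate 2. Of 13 further genes of the type III, type IV, lens and related families, 3 had a value and 2 were tested.

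LMNB1, a B-type lamin, was lower in resistant libraries. Parental cells held 38 and 38.5 FPKM, resistant replicate 1 held 29.2 FPKM and resistant replicate 2 held 20.3 FPKM. The groups did not overlap, and the log2 fold change was -0.63 ± 0.22 SE (95% interval -1.18 to -0.08, limma adjusted p = 0.274). It was -0.38 without resistant replicate 2. LMNB1 lies on chromosome 5 from 126776623 to 126837020 on the plus strand.

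LMNA, which yields lamins A and C from 1 gene and has 1 summed value here, stood at 26.9 and 18.1 FPKM in parental cells against 17.6 and 19.96 FPKM in resistant cells. These groups overlapped, and the parental libraries lay further apart than the resistant ones. The log2 fold change of -0.22 had a 95% interval of -0.82 to 0.37 (limma adjusted p = 0.665) and turned to 0.05 without parental replicate 1. LMNB2, the second B-type lamin gene, stood at 13.6 and 11.5 FPKM against 12.6 and 10.5 FPKM and overlapped as well. Its log2 fold change was -0.12 (95% interval -0.60 to 0.37, limma adjusted p = 0.795), and 0.004 without resistant replicate 2. LMNA lies on chromosome 1 from 156082573 to 156140089 on the plus strand and LMNB2 on chromosome 19 from 2427638 to 2456996 on the minus strand. LMNB2 shares 257 bases with TIMM13 on the same strand, so strand cannot tell their reads apart there. TIMM13 stood higher than LMNB2 in every library, at 46.6 and 42.9 FPKM in parental cells against 41.6 and 38.3 FPKM in resistant cells.

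**Figure D4:**
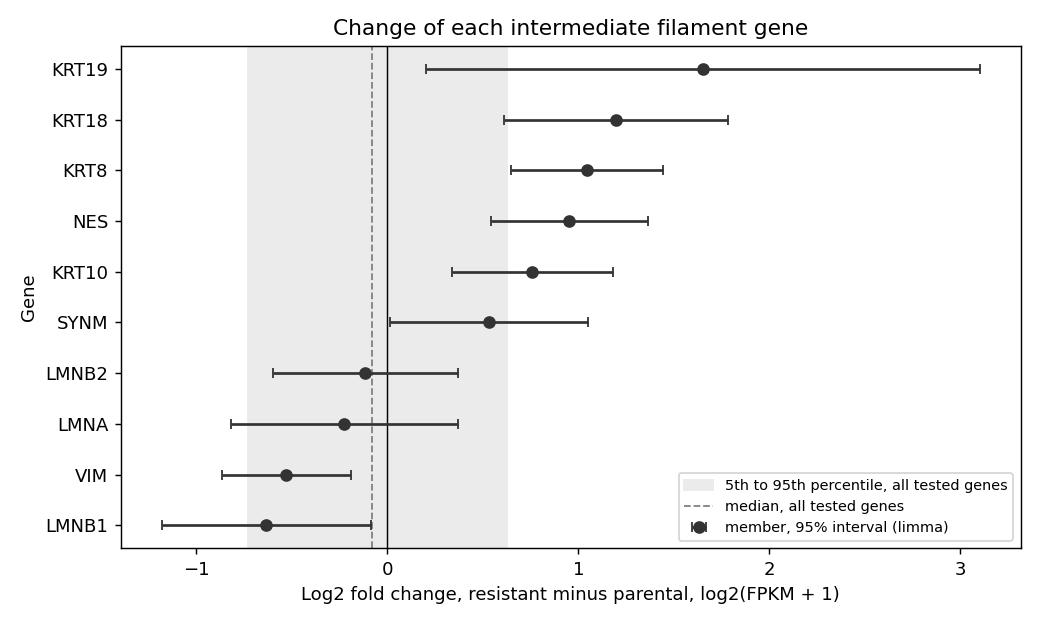
Log2 fold change of each intermediate filament gene on the log2(FPKM + 1) scale, resistant minus parental, with limma's 95% interval. The grey band covers the 5th to 95th percentile of all tested genes (-0.73 to 0.63). KRT19, KRT18, KRT8, NES and KRT10 lie above it while no plotted gene lies below it. KRT8 and KRT19 passed the minimum only by their level in resistant cells, which favoured a high place in advance.

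Within the lamin genes, LMNB2 per LMNB1 was 0.357 and 0.299 in parental cells, and 0.43 and 0.518 in resistant cells, a log2 difference of 0.53 (pooled SD 0.186). LMNA per LMNB1 was 0.707 and 0.47 in parental cells, and 0.603 and 0.986 in resistant cells. That ratio overlapped between the groups (two-sided exact permutation p = 0.667), and its log2 difference of 0.42 ran from 0.065 to 0.774 when 1 library was left out. Summed lamin FPKM was 78.4 and 68.2 in parental cells, and 59.4 and 50.7 in resistant cells. LMNB1 made up 48.4% and 56.5% of it in parental cells, and 49.2% and 39.9% in resistant cells.

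Genes that work with the lamins showed no shared direction. Of 21 tested partners of the nuclear lamina, 0 passed the adjusted limma test, 6 were higher and 5 lower without overlap, and the median log2 fold change was -0.04. Over all tested genes the groups were separate for 51.0% (19.1% higher and 31.8% lower), the background for this count and for those of the other lists, and nothing particular to a list is read from them. EMD, the inner nuclear membrane protein emerin, stood at 11.5 and 9.81 FPKM in parental cells against 3.79 and 4.61 FPKM in resistant cells (log2 fold change -1.16 ± 0.20 SE, limma adjusted p = 0.122). TMPO, which encodes the LAP2 proteins that bind lamins, held 20.1 FPKM in both parental libraries, then 15.6 FPKM (replicate 1) and 5.67 FPKM (replicate 2) in resistant cells. BANF1, a chromatin-binding partner of emerin and lamins, stood at 46.6 and 35.2 against 69.2 and 66.3 FPKM, and SYNE1, which encodes nesprin-1 of the bridge from nucleus to cytoskeleton, at 1.54 and 1.46 against 4.37 and 2.92 FPKM. NUP153, a nuclear pore protein, and NRM, the membrane protein nurim, overlapped between the groups (log2 fold changes -0.21 and 0.07).

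The 5 genes that process the farnesylated end of lamin precursors were all tested, 0 passed, and 3 were higher and 1 lower without overlap (median log2 fold change 0.19). ZMPSTE24, the protease that matures lamin A, stood at 19.8 and 20.9 FPKM in parental cells against 29.8 and 23.3 FPKM in resistant cells. The protease RCE1 (log2 fold change 0.42) and the farnesyltransferase subunit FNTA (0.19) lay higher and the subunit FNTB (-0.53) lower in both resistant libraries. The methyltransferase ICMT overlapped (-0.13).

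Plakins and desmosome proteins anchor cytoplasmic filaments to the cell cortex and to junctions. Of 20 such genes 9 had a value and 8 were tested, of which 0 passed, 2 were higher and 2 lower without overlap, with a median log2 fold change of -0.002. DST, the plakin dystonin, stood at 0.481 and 0.563 FPKM in parental cells against 1.55 and 1.75 FPKM in resistant cells (log2 fold change 0.80 ± 0.15 SE, limma adjusted p = 0.141), so it too passed the minimum only through the resistant libraries. JUP, the junction protein plakoglobin, stood at 12.4 and 10.9 against 5.19 and 6.65 FPKM (log2 fold change -0.88 ± 0.20 SE, limma adjusted p = 0.170). The desmosomal cadherin DSG2 stood at 22.4 and 23.1 against 26.3 and 25.8 FPKM. PERP, a desmosomal membrane protein, and PNN, a splicing-associated protein first found near desmosomes, had log2 fold changes of -0.24 and -0.09. Desmoplakin (DSP), which ties keratins to desmosomes, was below the minimum for testing.

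Of 21 tested chaperones, kinases and other regulators of filaments, 0 passed, 2 were higher and 9 lower without overlap, and the median log2 fold change was -0.16. AURKB, a mitotic kinase that phosphorylates vimentin, stood at 24.95 and 20.4 FPKM in parental cells against 9.22 and 6.91 FPKM in resistant cells (log2 fold change -1.39 ± 0.22 SE, limma adjusted p = 0.106). KRTCAP2, named for keratinocytes but a subunit of the oligosaccharyltransferase, stood at 11.8 and 14.4 against 25.7 and 40.0 FPKM. The 14-3-3 protein YWHAZ, a partner of phosphorylated keratin 18, stood at 228 and 222 against 171 and 154 FPKM. The small heat shock protein HSPB1 (log2 fold change 0.09) and the mitotic kinase CDK1 (-0.17) were abundant in all libraries.

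**Figure D5:**
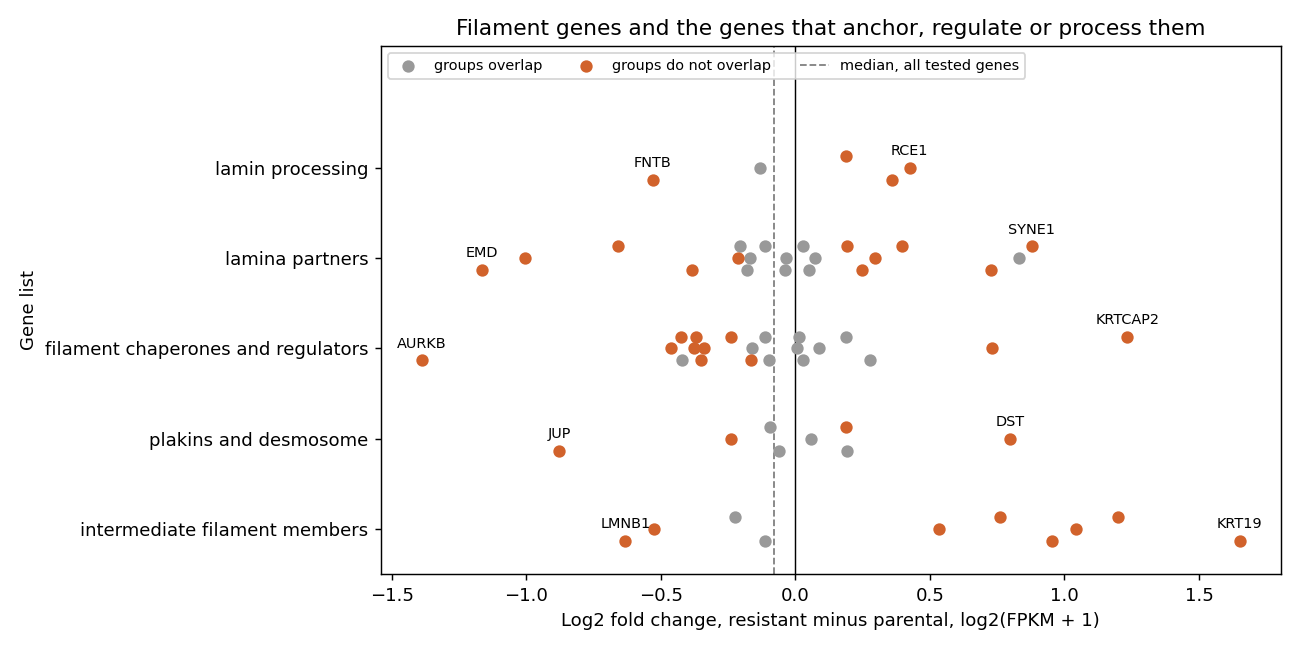
Log2 fold change (resistant minus parental, log2(FPKM + 1)) of each tested gene, by list, with 1 point per gene, orange where the groups do not overlap. Both extremes of each plotted list are named, and each of these 5 lists holds genes on both sides of 0. The vertical offset within a list only separates points.

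Markers of other cell types were set beside the keratin values. Of 18 epithelial markers only ESRP1, a splicing factor, had a value (8.02 and 9.06 FPKM in parental, 12.5 and 9.45 FPKM in resistant libraries, limma adjusted p = 0.490). EPCAM and CDH1 were among the listed markers without a value. Of 11 fibroblast markers 5 had a value, and their summed FPKM was 6.77 and 8.46 in parental cells, and 21.7 and 18.1 in resistant cells, with 4 tested and 3 higher without overlap. Of these 3, ACTA2 and COL1A1 lay under 1 FPKM in parental cells and passed the minimum only through the resistant libraries, so the count says nothing about the list. ACTA2, smooth muscle actin, stood at 0.741 and 0.891 against 4.78 and 3.28 FPKM, and COL1A1, a collagen chain, at 0.742 and 0.841 against 1.16 and 1.89 FPKM. S100A4, a calcium-binding protein, stood at 0.83 and 1.56 against 7.3 and 7.46 FPKM, and LUM, a matrix proteoglycan, overlapped between the groups. Of 10 leukocyte markers only CD68 and LCP1 had values, and both were lower without overlap, with a summed FPKM of 32.6 and 27.4 against 13.2 and 10.7. Of 7 endothelial markers 0 had a value, and of 7 retinal pigment epithelium markers 3 had one, with a summed FPKM of 5.29 and 4.69 against 4.48 and 3.08. This sum joins opposite directions. RLBP1 stood at 2.49 and 2.24 against 0.722 and 0.758 FPKM and passed the minimum only through the parental libraries. TTR, below the minimum for testing, stood at 0 and 0.035 against 0.55 and 0.85 FPKM, and BEST1 overlapped between the groups. The part of other cells in the keratin values was not tested. In bulk RNA, more cells with a transcript and more transcript per cell cannot be told apart.

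Transcription factors of epithelial to mesenchymal transition, which repress keratin genes and favour vimentin in many tissues, showed no call. Of 7 listed, 6 had a value and 5 were tested, of which 0 were higher and 2 lower without overlap (median log2 fold change -0.05). SNAI2, the most abundant, stood at 81.1 and 79.2 FPKM in parental cells against 92.4 and 66.4 FPKM in resistant cells, and TWIST1 at 15.0 and 11.6 against 10.8 and 11.5 FPKM. TWIST2 had a log2 fold change of -0.13, and ZEB2 stood at 1.71 and 3.01 against 4.14 and 1.84 FPKM.

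Markers of pigment cells and of their progenitors were read beside NES and VIM. Of 11 tested melanocyte markers, 1 was higher and 6 lower without overlap, beside 19.1% and 31.8% of all tested genes (median log2 fold change -0.41). The higher one was TYRP1, the most abundant, at 1490 and 1484 FPKM in parental cells against 2143 and 1514 FPKM in resistant cells. PMEL, MLANA, TYR and SLC45A2 overlapped between the groups. The melanin enzyme DCT came nearest to a call (-2.04 ± 0.17 SE, limma adjusted p = 0.0544). It stood at 4.88 and 5.46 FPKM in parental cells against 0.486 and 0.517 FPKM in resistant cells. DCT thus passed the minimum only through the parental libraries. The same held for S100B, also among the 6 lower, at 2.26 and 2.76 against 0.77 and 0.96 FPKM. MITF, the lineage factor, held 35.3 and 37.4 FPKM in parental cells against 9.64 FPKM (replicate 1) and 31.8 FPKM (replicate 2) in resistant cells. Of 10 neural crest and progenitor markers, 6 had a value and were tested. Of these, 4 were higher and 1 lower without overlap (median 0.22), beside 19.1% and 31.8% of all tested genes. EDNRB, the endothelin receptor of melanoblasts, stood at 27.9 and 24.6 against 50.8 and 46.9 FPKM, and PAX3 and FOXD3, factors of the neural crest, had log2 fold changes of 0.20 and 0.58. MSI1 was the lower one, at 5.11 and 4.73 against 3.30 and 3.76 FPKM, and TFAP2A, the most abundant, overlapped between the groups. Of 12 tested proliferation markers, 1 was higher and 4 lower without overlap (median -0.13), with MKI67 at 3.29 and 6.92 against 9.09 and 11.1 FPKM and MCM3 at 87.3 and 92.1 against 59.1 and 49.8 FPKM.

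The genes nearest in pattern were found by the distance between log2(FPKM + 1) values centred on each gene's own mean over the 4 libraries, among all tested genes. Nearest to KRT18 were SLC66A3 (distance 0.0547), RNF13 (0.0883) and RBMS1 (0.0953), which stood at 3.19 and 3.65 FPKM in parental cells against 7.74 and 11.7 FPKM in resistant cells. Nearest to NES were H3C13 (0.0776), GNG11 (0.103) and POLE4 (0.113), the last at 12.7 and 13.04 against 24.8 and 27.4 FPKM. H3C13 stood at 0.395 and 0.371 FPKM in parental cells and passed the minimum only through the resistant libraries. With 4 libraries in 2 groups such likeness describes the shared contrast and the spread within each group only.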

How the data were processed

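RNA sequencing of 2 parental and 2 resistant libraries was analysed from the FPKM values that the authors deposited, 1 per gene and library, per the file headers. Per the submitters' processing notes the build was hg38. No source used here names the aligner, FPKM program or annotation release. Of 11650 identifiers, 11575 matched a table of current symbols. Positions are from GENCODE release 29 on GRCh38, and promoter windows from RefSeq.

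Since FPKM are not counts, count models were left aside. Depth could not be recovered: of 49 genes low in both parental libraries, at most 3 shared 1 ratio within 1%, and of 31 in the resistant pair at most 3. No gene had both group means below 0.5009 FPKM, so low genes seem to have been removed before deposit.

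Genes whose mean reached 1 FPKM were tested as log2(FPKM + 1) in limma 3.58.1 (R 4.3.3) with a variance trend. The method was first run on simulated data with independent normal noise for each gene. That run does not show how the method fares on these libraries. Tables and figures used Python 3.11.15. The members, gene lists and tests were chosen with earlier results of these data known. Named genes are the 10 members and, from each other list, any gene past the threshold, up to 3 of highest mean FPKM and up to 4 of largest change without overlap. KRT7, IFFO2, DSP, KRT10-AS1 and TIMM13 are named as filament, anchoring or overlapping genes below the minimum or outside the lists. TTR, also below the minimum, is named to show the parts of a sum. Not every gene the rule allows is named. For KRT18 and NES the genes nearest in pattern were named as well.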

Additional observations from a re-analysis of the deposited data

How the results depend on the processing

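No member passed the adjusted limma threshold under any of the alternatives, which were another pseudocount, no or a higher minimum, 3 rescalings, library weights, no variance trend, the replicate block and leaving out each library. KRT8, KRT18, KRT19, KRT10, VIM, NES, SYNM and LMNB1 kept their direction under the 3 rescalings, the only alternatives able to turn it. Their groups did not overlap, so another pseudocount, minimum, weighting or error model, or leaving out 1 library, could not turn a direction. Those alternatives are thus not read as agreement. KRT8 and KRT19 were not tested at a minimum mean of 5 FPKM. The direction of LMNA turned without parental replicate 1 (0.048, with the other replicates left out down to -0.496) and that of LMNB2 without resistant replicate 2 (0.004, with the others left out down to -0.234). The causes were not tested.

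Over all genes, limma called 5 higher and 1 lower. It called 3 higher with a pseudocount of 0.1, median-of-ratios scaling, quantile normalization or library weights, and 3 lower after rescaling to a common sum. With 1 library left out, calls ran from 0 to 19 higher and from 0 to 13 lower, where the lone library of a group is assumed to vary like the other group. At an unadjusted p under 0.05, 622 genes were higher and 1045 lower, against 916 and 886 with median-of-ratios scaling and 853 and 951 with quantile normalization. The log2 difference of KRT8 to KRT18 was 0.729 with 0.1 FPKM added to both. With the replicate block, limma called 4 genes higher, 1 lower and 0 members. The numbers gave no sign of pairing, as the replicate differences of the 2 groups correlated at -0.0709 across genes. Depth is unknown, so no counting error could be set on the low values of KRT8, KRT19 and KRT7.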
